A study of Mus musculus with 6 samples.

Results

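Wnt ligands are secreted signalling proteins of the skin. Their RNA was followed here in α6 integrin positive cells of K15-EGFP mouse skin, where enhanced green fluorescent protein (EGFP) is under a keratin 15 promoter. The 10 ligands were Wnt3, Wnt3a, Wnt4, Wnt5a, Wnt5b, Wnt6, Wnt7a, Wnt7b, Wnt10a and Wnt10b. Every probe set that the platform annotation assigns to 1 of these symbols was taken. All 10 were on the array, among 8251 named genes, with 12 of its 12422 probe sets. Wnt10b had 3 and each other gene 1. EGFP-high cells and EGFP-negative cells, with 3 arrays a group, were both taken as α6 integrin positive cells from K15-EGFP transgenic mouse skin. In these mice the promoter marks mainly the hair follicle bulge, where follicle stem cells reside, so the EGFP-negative gate holds the other α6 integrin positive cells of the skin and is no pure epidermal population. The labels give no age, sex or number of mice, nor do they tie a replicate to its own animal or sort. The spread behind each p-value is therefore that between these samples, and may be technical.

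Wnt proteins carry a lipid that the enzyme Porcupine adds and that the carrier Wls needs for their export. On the receiving cell they bind Frizzled receptors with the coreceptors Lrp5 and Lrp6. In the canonical branch this stabilises β-catenin, which acts on genes together with TCF factors. Other Wnt signals, typically those of Wnt5a, act on cell shape and movement without β-catenin. In skin the pathway is known for starting follicle formation and the growth phase of the hair cycle.

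EGFP-high cells held lower RNA levels of 3 Wnt ligands than EGFP-negative cells, and 0 of the 7 ligand probe sets that could be tested rose by limma (0 higher and 6 lower at an unadjusted p under 0.05, where 8.47% and 8.68% of all tested probe sets were). Wnt3a, Wnt6 and Wnt7b entered the test only through their EGFP-negative values, so these counts are a description and support nothing about the ligands together. Wnt10a, Wnt3a and Wnt4 fell, with differences of -1.69, -1.53 and -2.12 on the log2 scale used here (adjusted p = 0.000968, 0.00277 and 0.0215, limma with Benjamini-Hochberg adjustment over 7453 tested probe sets, n = 3 each). Wnt3, Wnt6 and Wnt7b had lower values in all 3 EGFP-high samples as well but did not pass the threshold of 0.05, and Wnt5b did not pass either. With the replicate number as a block in limma, Wnt3 and Wnt7b passed (adjusted p = 0.0338 and 0.0344). The share called over all tested probe sets was then 10.4%, against 5.19% without the block. Wnt5a, Wnt7a and Wnt10b were too dim over the 6 arrays to enter the test. Of these Wnt5a read 2.3 to 14.7 in EGFP-high against 71.6 to 86.9 in EGFP-negative samples. With no filter on low values its adjusted p by limma was 0.00648. Among all tested probe sets 2.17% were called lower in EGFP-high and 3.02% higher. The median log2 difference over all 12 ligand probe sets was -0.93, beside 0.01 over all 12422. Because the RNA is from sorted pools, fewer cells that make a ligand and less RNA per cell cannot be told apart.

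Starting windows from RefSeq (build GRCm38.p6) are shown for Wnt3a and Wnt4, which fell, and for Wnt3, whose lower values did not pass the test. Each window runs from 250 bases before the transcript start to 50 after it, 5′ to 3′ on the gene's strand. Capitals mark GC boxes (GGGCGG) and the cores bound by TCF factors (CTTTGA or CTTTGT), searched on both strands, where matches of 1 motif may overlap each other.
Wnt3a, chr11:59290702-59291001, minus strand: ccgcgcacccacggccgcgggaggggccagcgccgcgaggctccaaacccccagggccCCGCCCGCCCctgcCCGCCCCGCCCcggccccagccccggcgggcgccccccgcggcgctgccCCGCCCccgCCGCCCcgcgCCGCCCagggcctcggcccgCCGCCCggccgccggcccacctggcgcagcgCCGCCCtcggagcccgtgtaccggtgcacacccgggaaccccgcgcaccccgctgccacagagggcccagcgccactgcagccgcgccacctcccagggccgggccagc
Wnt4, chr4:137277385-137277684, plus strand: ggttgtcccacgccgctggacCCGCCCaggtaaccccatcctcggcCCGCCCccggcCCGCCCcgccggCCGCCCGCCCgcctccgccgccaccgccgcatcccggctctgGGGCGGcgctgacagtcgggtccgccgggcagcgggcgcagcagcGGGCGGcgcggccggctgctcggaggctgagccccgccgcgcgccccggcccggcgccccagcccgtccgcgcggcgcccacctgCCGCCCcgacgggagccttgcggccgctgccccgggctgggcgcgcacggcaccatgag
Wnt3, chr11:103773925-103774224, plus strand: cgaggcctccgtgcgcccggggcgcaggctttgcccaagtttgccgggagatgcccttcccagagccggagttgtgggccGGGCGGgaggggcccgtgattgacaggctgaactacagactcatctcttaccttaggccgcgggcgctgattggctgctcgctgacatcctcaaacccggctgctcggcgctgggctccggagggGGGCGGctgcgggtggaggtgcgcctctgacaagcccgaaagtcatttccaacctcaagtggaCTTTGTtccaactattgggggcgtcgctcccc

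The Wnt3a and Wnt4 windows were 86.3% and 84.3% G or C, where the median of 32851 windows was 52.7% and the 90th percentile 69.7%. They held 9 and 8 GC boxes and no TCF core. The Wnt3 window was 65.7% G or C, with 2 GC boxes and 1 CTTTGT at position 269 of the window. The Wnt6 and Wnt7a windows were 76.7% and 76.0% G or C, each with 6 GC boxes and no TCF core. The first Wnt5b window was 78.0% G or C, with 3 GC boxes and no TCF core. The other Wnt5b windows (53.0% and 55.0%) and that of Wnt10b (66.3%) had less G or C. A G or C rich window with GC boxes and no TCF core was thus not particular to the ligands that fell. Of the 10 ligands 7 had windows in the table, 9 windows in all. A GC box was in 7 of these 9, against 35.7% of all windows, and a TCF core in 2 of 9, against 31.2%. The AP-1 letters TGANTCA were in 1 window, upstream of Wnt5b, against 7.81% of all windows, and TATAAA was in 0 of 9, against 13.6%. These are letter matches in a short window and say nothing about a factor's binding. The table has no window for Wnt5a, Wnt7b or Wnt10a.

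Presence was read against control rows of the array. A value was called above the control level when it exceeded the 95th percentile, on its own array, of 15 probe sets for bacterial genes that have no target in mouse RNA. This level was 43.95, 34.76 and 28.25 on EGFP-high arrays 1, 2 and 3, and 32.64, 31.42 and 25.9 on EGFP-negative arrays 1, 2 and 3. In EGFP-high cells 3 ligands were above it on all 3 arrays (Wnt3, Wnt5b and Wnt10a), against 8 in EGFP-negative cells (the same 3 and Wnt3a, Wnt4, Wnt5a, Wnt6 and Wnt7b). Of all 12422 probe sets 58.1% and 59.9% were above it on all 3 EGFP-high and all 3 EGFP-negative arrays. For each replicate number the level was higher on the EGFP-high array, so the groups were not read against equal levels. Wnt3a in EGFP-high cells (35.5, 35.5 and 27.4) exceeded the levels of the EGFP-negative arrays of the same numbers. Without EGFP-high replicate 1, whose control level was the highest of the 6, 5 ligands passed in EGFP-high, Wnt4 and Wnt10b being added. Probe sets differ in brightness per molecule, so a ligand is compared only with itself across arrays, and one below this level may still be expressed.

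**Figure D1:**
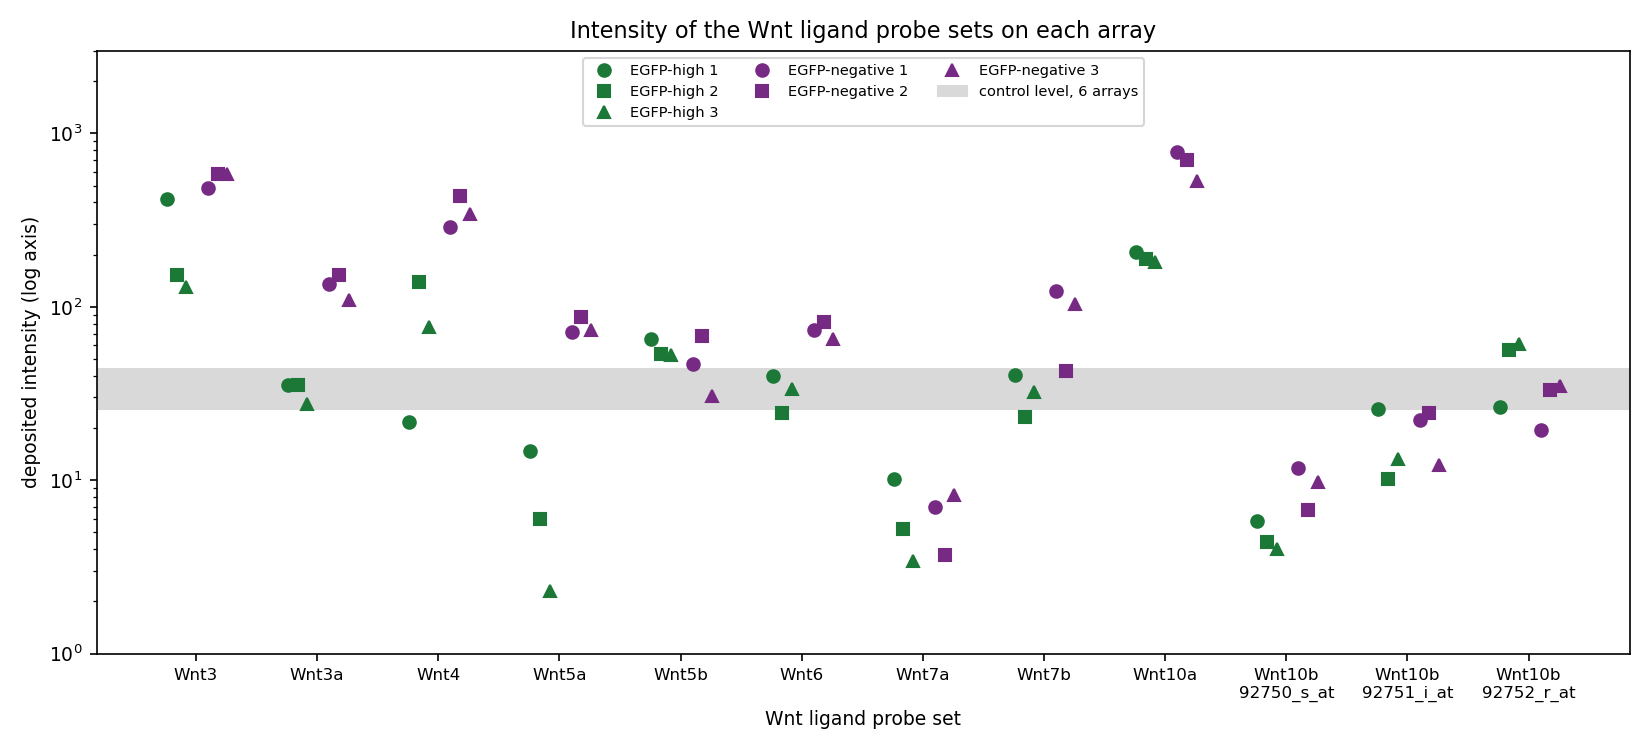
Deposited intensity (log axis) of the 12 Wnt ligand probe sets, EGFP-high arrays in green left of EGFP-negative arrays in purple, with a marker shape for each replicate number. The grey band spans the control levels of the 6 arrays, from 25.9 to 43.95. In 8 probe sets every EGFP-high point lies under every EGFP-negative point, while those of Wnt5b, Wnt7a and both other Wnt10b probe sets overlap.

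Wnt10a was the ligand with the smallest p. It is a canonical ligand, and loss of WNT10A function in humans causes ectodermal dysplasia of teeth, hair and skin. It read 208.3, 187.8 and 182.2 in EGFP-high samples 1, 2 and 3, against 784.7, 704.2 and 534.2 in EGFP-negative samples 1, 2 and 3. The groups lay far apart, with EGFP-high values within a narrow range and all above the control level. EGFP-high cells averaged 192.8 ± 13.74 and EGFP-negative cells 674.4 ± 127.9 (SD, n = 3 each), a log2 difference of -1.69 (SE 0.18, 95% CI -2.10 to -1.29).

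Wnt3a, a canonical ligand that in mouse culture helps dermal papilla cells keep their capacity to induce hair, read 35.5, 35.5 and 27.4 in EGFP-high against 135, 152.1 and 109.7 in EGFP-negative samples. All EGFP-negative values stood well above the control level, and in EGFP-high cells only replicate 2 passed it. The log2 difference was -1.53 (SE 0.20, 95% CI -1.99 to -1.08). Its size depends on the treatment of low values, being -0.93 with a pseudocount 4 times as large and -1.89 with values floored at the control level in place of a pseudocount.

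Wnt4, known for its part in kidney tubule and ovary development in mice, read 21.8, 139.5 and 76.4 in EGFP-high against 287, 438.2 and 344 in EGFP-negative samples. The groups did not overlap, but the EGFP-high samples differed widely, and sample 1 was under the control level. The log2 difference was -2.12 (SE 0.42, 95% CI -3.07 to -1.16). The call was lost without EGFP-high replicate 3 (adjusted p = 0.0737), without EGFP-negative replicate 2 (adjusted p = 0.0734) and without EGFP-negative replicate 3 (adjusted p = 0.0661). With all arrays and the replicate number as a block in limma, the adjusted p of Wnt4 was 0.00162.

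Wnt3, a canonical ligand needed for gastrulation and limb outgrowth in mice, read 420.7, 152 and 129.6 in EGFP-high against 485.7, 583.5 and 581.8 in EGFP-negative samples. EGFP-high sample 1 lay close to the EGFP-negative group, and samples 2 and 3 lay well under it. The log2 difference was -1.34 (SE 0.36, adjusted p = 0.075). It was -1.83 (adjusted p = 0.00089) without EGFP-high replicate 1, and adjusted p = 0.0338 with the replicate number as a block.

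Over the 7453 tested probe sets that EGFP-high array also scored nearest to the EGFP-negative arrays on component 1 of a principal component analysis. Its score was -10.05, beside -29.46 and -24.28 for EGFP-high samples 2 and 3. EGFP-negative samples 1, 2 and 3 scored 29.09, 15.98 and 18.73. For Wnt4 the same array had the lowest value of the 6, so it did not stand nearer to the EGFP-negative group in every ligand. What part this array's difference has in the Wnt3 result was not tested beyond leaving it out.

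Wnt6 and Wnt7b were dim in EGFP-high cells. Wnt6, a ligand of surface ectoderm, read 40.1, 24.4 and 33.7 in EGFP-high against 73.7, 82.1 and 65.2 in EGFP-negative samples (log2 -0.84, SE 0.22, adjusted p = 0.0703). Wnt7b, which in mice is needed for lung growth, read 40.7, 23.1 and 32.4 in EGFP-high against 123.8, 42.8 and 103.6 in EGFP-negative samples (log2 -1.02, SE 0.33, adjusted p = 0.135). In both, EGFP-high samples lay around the control level and under every EGFP-negative sample, and for Wnt7b the nearest was EGFP-negative sample 2. Wnt7b passed with the replicate block (adjusted p = 0.0344) and without EGFP-negative replicate 2 (adjusted p = 0.0265). Wnt6 passed when the variance model had no intensity trend (adjusted p = 0.0337) and not with the block (adjusted p = 0.0622).

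The ligands Wnt5a and Wnt5b, which signal mainly outside the β-catenin branch, had different patterns. Wnt5a, needed for limb outgrowth in mice, read 14.7, 6 and 2.3 in EGFP-high against 71.6, 86.9 and 73.3 in EGFP-negative samples. It was under the control level on every EGFP-high array and above it on every EGFP-negative array. Set against the control level as the lowest readable value, it was at least 2.19-fold lower in EGFP-high. Its mean over the 6 arrays was under the filter, so it had no test in the fit reported here; with no filter on low values its adjusted p was 0.00648. Wnt5b, a regulator of cartilage growth, read 65, 53.3 and 52.5 in EGFP-high against 46.7, 67.6 and 30.7 in EGFP-negative samples. The groups overlapped, and the log2 difference was 0.21 (95% CI -0.37 to 0.78, adjusted p = 0.751). The difference between the responses of Wnt5a and Wnt5b was not tested.

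Wnt7a and Wnt10b gave no readable difference. Wnt7a, which patterns the back of the limb in mice, read 10.2, 5.2 and 3.4 in EGFP-high against 7, 3.7 and 8.2 in EGFP-negative samples, all under the control level. Wnt10b, a canonical ligand of follicle placodes and growing follicles, was split over 3 probe sets. The first (suffix s_at) read 4 to 5.8 in EGFP-high and 6.7 to 11.7 in EGFP-negative samples, and the second (suffix i_at) 10.1 to 25.9 in EGFP-high and 12.3 to 24.4 in EGFP-negative samples, both under the control level on all 6 arrays. The third (suffix r_at) read 26.3, 56 and 61 in EGFP-high against 19.6, 33.3 and 34.8 in EGFP-negative samples, with 2 of 3 arrays above the control level in each group. Its groups overlapped (log2 0.44), and as the other probe sets were under the control level, Wnt10b has no settled direction. With no filter none of the 3 passed (adjusted p = 0.387, 0.866 and 0.61).

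**Figure D2:**
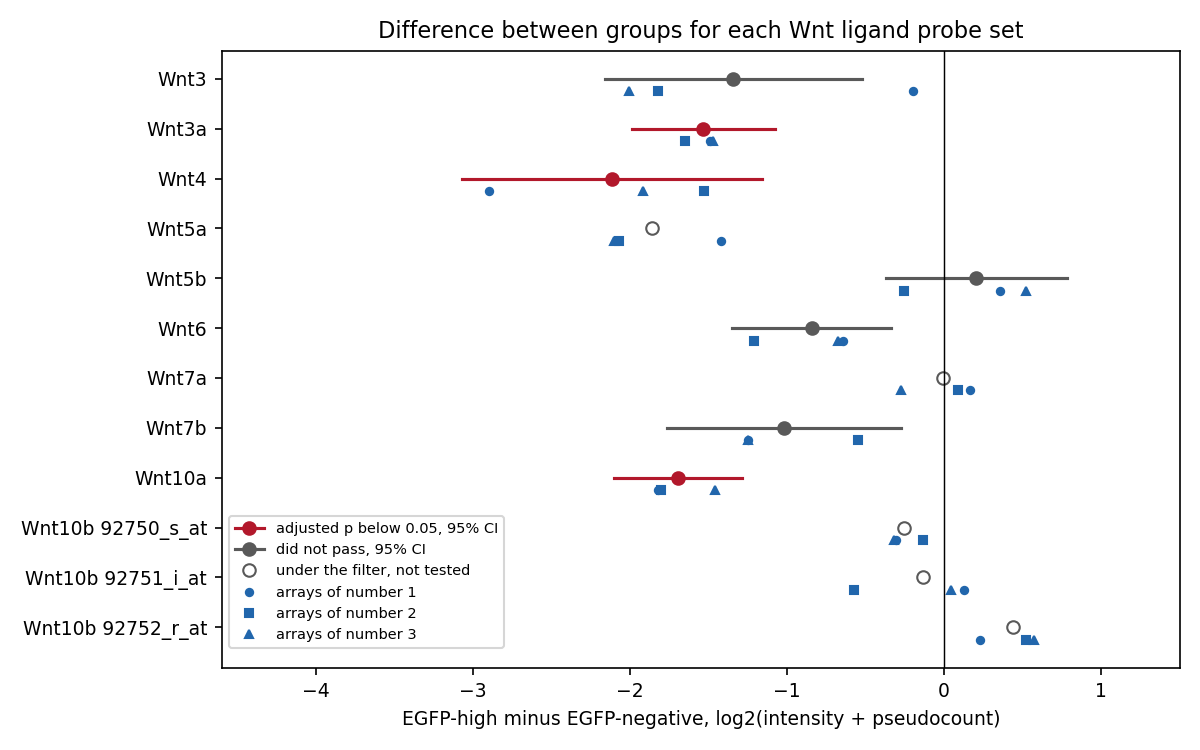
EGFP-high minus EGFP-negative difference of each Wnt ligand probe set on the log2(intensity + pseudocount) scale. Red and grey circles with bars are tested probe sets with their 95% confidence intervals, open circles were under the filter, and the small blue markers give the difference between the arrays of each replicate number. Wnt3a, Wnt4 and Wnt10a passed the threshold, and the differences of Wnt3 ran from -0.20 for number 1 to -2.01 for number 3.

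Of the 12 probe sets 8 had EGFP-high values all under the EGFP-negative values, where 8.45% of all 12422 probe sets did. These were Wnt3, Wnt3a, Wnt4, Wnt5a, Wnt6, Wnt7b, Wnt10a and the first of Wnt10b, the last under the control level in both groups. With the replicate number as a block, 5 ligands passed, all lower (Wnt3, Wnt3a, Wnt4, Wnt7b and Wnt10a), while the share called over all tested probe sets was 10.4%, against 5.19% without the block. The filter kept 7 of the 12 probe sets, and 3 of these 7 entered only through their EGFP-negative values (Wnt3a, Wnt6 and Wnt7b, whose EGFP-high means were under the filter). Such a probe set had to differ to be tested, so counts over the 7 are a description and support nothing about the ligands together.

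Some ligand genes lie side by side in the genome. In the RefSeq annotation Wnt6 and Wnt10a are neighbours among protein-coding genes on chromosome 1, and both had lower values in EGFP-high samples, with Wnt10a past the threshold. Wnt10b and Wnt1 are neighbours on chromosome 15. Wnt1, a canonical ligand of the developing midbrain in mice, read 172.9, 156 and 61.6 in EGFP-high against 116.7, 136.7 and 77.6 in EGFP-negative samples (log2 0.14, adjusted p = 0.887), and the groups overlapped. The other ligands on the array, Wnt2b, Wnt8a and Wnt11, read 5.1 to 20.8 in EGFP-high and 4.6 to 53.8 in EGFP-negative samples and were not tested. In these 3 the single value above the control level was that of Wnt2b in EGFP-negative sample 1.

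Profiles most like the called ligands were found as the smallest root mean square distance between centred log2 values over the 6 arrays, a measure that the difference between the groups dominates. Nearest to Wnt3a were Psmb8, an immunoproteasome subunit (0.098), Ifngr1, a chain of the interferon gamma receptor (0.109), and Wnt10a (0.138). Nearest to Wnt10a were Wnt3a, Ifngr1 (0.163) and Ikbke, a kinase of innate immune signalling (0.188). Wnt10a and Wnt3a were thus among each other's 3 nearest of 5628 tested genes. Wnt4 had no close match, its nearest being Thy1 (0.469), a surface glycoprotein of T cells and other cells, Gata3 (0.531), a transcription factor of epidermis and inner root sheath, and Thbs2 (0.564), a matricellular protein.

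Thy1 read 18.4, 59.4 and 85.1 in EGFP-high against 164.1, 207.1 and 154.6 in EGFP-negative samples (log2 -1.51, adjusted p = 0.0382). The call was lost without EGFP-high replicate 2 or any 1 EGFP-negative array (adjusted p = 0.0829 to 0.119). The CD3 chains of the T cell receptor complex, too dim to be tested, had higher means in EGFP-high samples. Cd3g read 46.7, 62.8 and 65.3 in EGFP-high samples, all above the control level, against 48.4, 6.1 and 16.7 in EGFP-negative samples, where 1 array was above it. Cd3e read 27.7, 28.7 and 135.4 in EGFP-high against 20.8, 19.5 and 21.7 in EGFP-negative samples, and Cd3d 18.6, 22.4 and 28.7 in EGFP-high against 2.2, 7.2 and 7.6 in EGFP-negative samples. For both, the single value above the control level was that of EGFP-high sample 3, and the groups did not overlap. Of 9 T cell markers 2 were above the control level on all EGFP-high arrays and 2 on all EGFP-negative arrays, and their summed intensity was 308.6 to 522.9 in EGFP-high and 310.9 to 404.5 in EGFP-negative samples.

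Other cell types that make Wnt ligands were read from marker lists. Of 10 dermal papilla markers 3 passed the control level on all EGFP-high arrays and 2 on all EGFP-negative arrays, with sums of 259.1 to 309.8 in EGFP-high and 247.2 to 317.5 in EGFP-negative samples, and the papilla factors Sox2 and Fgf10 were under it on all arrays. Of 11 fibroblast markers 7 were above it on all EGFP-high arrays and 8 on all EGFP-negative arrays, with sums of 1638 to 1845 in EGFP-high and 1264 to 1565 in EGFP-negative samples. By limma 1 of 8 tested fibroblast genes was called higher, the collagen gene Col5a2 (log2 1.75, adjusted p = 0.0302), and 0 lower (3 higher and 0 lower at an unadjusted p under 0.05). Over all tested genes 3.06% were called higher and 2.27% lower (8.71% and 9.06% at an unadjusted p under 0.05). The call of Col5a2 was lost without any 1 array other than EGFP-high replicate 1 (adjusted p = 0.0518 to 0.138). Of 10 hair germ and matrix markers 7 were above it on all EGFP-high arrays and 8 on all EGFP-negative arrays, with sums of 1361 to 1565 in EGFP-high and 2574 to 3004 in EGFP-negative samples. Gata3 alone set these sums apart (427.8 to 476.1 in EGFP-high against 1571.5 to 2151.6 in EGFP-negative samples), and without it they overlapped, at 885.1 to 1104 in EGFP-high and 827.3 to 1048 in EGFP-negative samples. Beside the same shares over all tested genes, the hair germ and matrix list went both ways. Of its 8 tested genes 2 were lower (Gata3 and the signalling factor Bmp4) and 1 higher, with a median log2 difference of 0.12. The higher one was the homeobox gene Dlx3 (125.7, 160.8 and 169.2 in EGFP-high against 14.5, 20.2 and 36.3 in EGFP-negative samples, log2 2.02, adjusted p = 0.00189). Its EGFP-negative values were all under the filter intensity of 44.54, so it entered the test only through its EGFP-high values. The call of Bmp4 (log2 -0.76, adjusted p = 0.0184) was lost without any 1 array other than EGFP-high replicate 1 (adjusted p = 0.0551 to 0.0911). Shh, a hair germ ligand, read 47.8 to 115.4 in EGFP-high against 70.8 to 77.9 in EGFP-negative samples. What part these cells have in the ligand differences was not tested.

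The gated populations were read through Cd34, a bulge marker, and Itga6, the gene of the α6 integrin by which both were selected. Cd34 read 1338.8 to 1579 in EGFP-high and 29.4 to 40.9 in EGFP-negative samples. Itga6 read 485.1, 405.6 and 585.3 in EGFP-high against 1178.1, 1050 and 1371.4 in EGFP-negative samples. It was well above the control level in both gates and fell, as the called ligands did (log2 -1.26, adjusted p = 0.00449). Of 10 tested basal keratinocyte markers 2 fell and 0 rose (2 lower and 0 higher at an unadjusted p under 0.05), the other being Sfn, a 14-3-3 protein of keratinocytes (log2 -1.31, adjusted p = 0.0106). Over all tested genes 2.27% fell and 3.06% rose by limma (9.06% and 8.71% at an unadjusted p under 0.05). The call of Sfn was lost without EGFP-high replicate 2 or 3 (adjusted p = 0.0533 and 0.0513). Of the 12 markers on the array 10 were above the control level on all EGFP-high arrays and 10 on all EGFP-negative arrays. Their sums were 22430 to 26040 in EGFP-high and 26260 to 29730 in EGFP-negative samples, and their median log2 difference was -0.02. What part the Itga6 difference between the gates has in the ligand differences was not tested. Probe sets of Krt15 and Krt14 were under the control level on all arrays and that of Krt5 on 5 of 6, so they give no check of the gates.

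The remaining Wnt pathway was read from lists of genes by role. Of 54 tested genes other than the 10 ligands, 6 rose and 1 fell, where 3.06% and 2.27% of tested genes did over the whole array, and the median difference was 0.15. Lgr5, Dkk3 and Tcf7l1, among the 6 that rose, are also on the list of bulge markers. Of 10 tested bulge markers 9 rose and 0 fell, and as the lists share genes, their rises are not separate. Lgr5, Cd34 and Fgf18 read under the filter intensity of 44.54 on every EGFP-negative array. They entered the test only through their EGFP-high values. The bulge count, and every pathway count that holds Lgr5, is therefore a description and supports nothing about a list as a whole. What part the gate has in these rises was not tested. Of 8 tested secretion and transport genes 0 passed by limma, with 0 higher and 2 lower at an unadjusted p under 0.05, where 8.71% and 9.06% of tested genes were. The brightest of them, Vps35, a retromer subunit, and Sdc1, a heparan sulphate carrier, differed by -0.42 and 0.32 on the log2 scale (adjusted p = 0.45 and 0.358). Wls, the Wnt carrier, singled out after its values were seen, read 428.9, 343.3 and 585.1 in EGFP-high against 827.8, 620 and 750.1 in EGFP-negative samples. The groups did not overlap, with a log2 difference of -0.69 (adjusted p = 0.118, and 0.0225 with the replicate block).

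On the receiving side 2 of 12 receptors rose and 0 fell, the receptor Fzd2 (672.1 to 993.3 in EGFP-high against 63.7 to 140.7 in EGFP-negative samples) and the R-spondin receptor Lgr5 (254.7 to 402.6 in EGFP-high against 4.6 to 6.1 in EGFP-negative samples, the last under the control level). Over all tested genes 3.06% rose and 2.27% fell. At an unadjusted p under 0.05 by limma, 6 receptors were higher and 1 lower, where 8.71% and 9.06% of tested genes were. Lrp6 and Fzd3 were the brightest receptors that did not pass (log2 0.35 and 0.61), and Fzd3 passed with the block (adjusted p = 0.0424). Of 4 tested secreted modulators the antagonist Sfrp1 and the Dickkopf family member Dkk3 rose (log2 2.36 and 2.49). Among TCF factors and cofactors 2 of 10 rose, the repressor Tcf7l1 (log2 1.58, adjusted p = 0.0345) and the corepressor Ctbp2 (log2 0.99, adjusted p = 0.0487). In that list 2 were higher and 1 lower at an unadjusted p under 0.05. The call of Tcf7l1 was lost without EGFP-high replicate 2, EGFP-high replicate 3 or EGFP-negative replicate 2 (adjusted p = 0.115, 0.147 and 0.0795). That of Ctbp2 was lost without any 1 array other than EGFP-high replicate 1 (adjusted p = 0.0579 to 0.181). With all arrays and the replicate block in limma, adjusted p was 0.00214 for Tcf7l1 and 0.00548 for Ctbp2.

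Of 14 tested genes on the list of cytoplasmic signalling 1 fell, Celsr1, which is a planar polarity cadherin of the cell surface. It read 122.6 to 152.5 in EGFP-high against 263.7 to 324.2 in EGFP-negative samples (adjusted p = 0.00833). No other gene of that list passed, and 1 was higher and 1 lower at an unadjusted p under 0.05. Over all tested genes 3.06% rose and 2.27% fell by limma (8.71% and 9.06% at an unadjusted p under 0.05). β-Catenin itself, Ctnnb1, had a log2 difference of 0.48 (adjusted p = 0.278, and 0.0225 with the block). Of 7 target genes only Lgr5 passed, with 1 higher and 2 lower at an unadjusted p under 0.05. The brightest others, Jun and Ccnd1, differed by 0.19 and -0.62 on the log2 scale (adjusted p = 0.875 and 0.194). Axin2, a feedback inhibitor often used as a readout of canonical signalling, singled out after its values were seen, read 91.2, 66.9 and 72.7 in EGFP-high against 113.7, 84.7 and 104.8 in EGFP-negative samples. These ranges overlapped (log2 -0.32, adjusted p = 0.46).

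**Figure D3:**
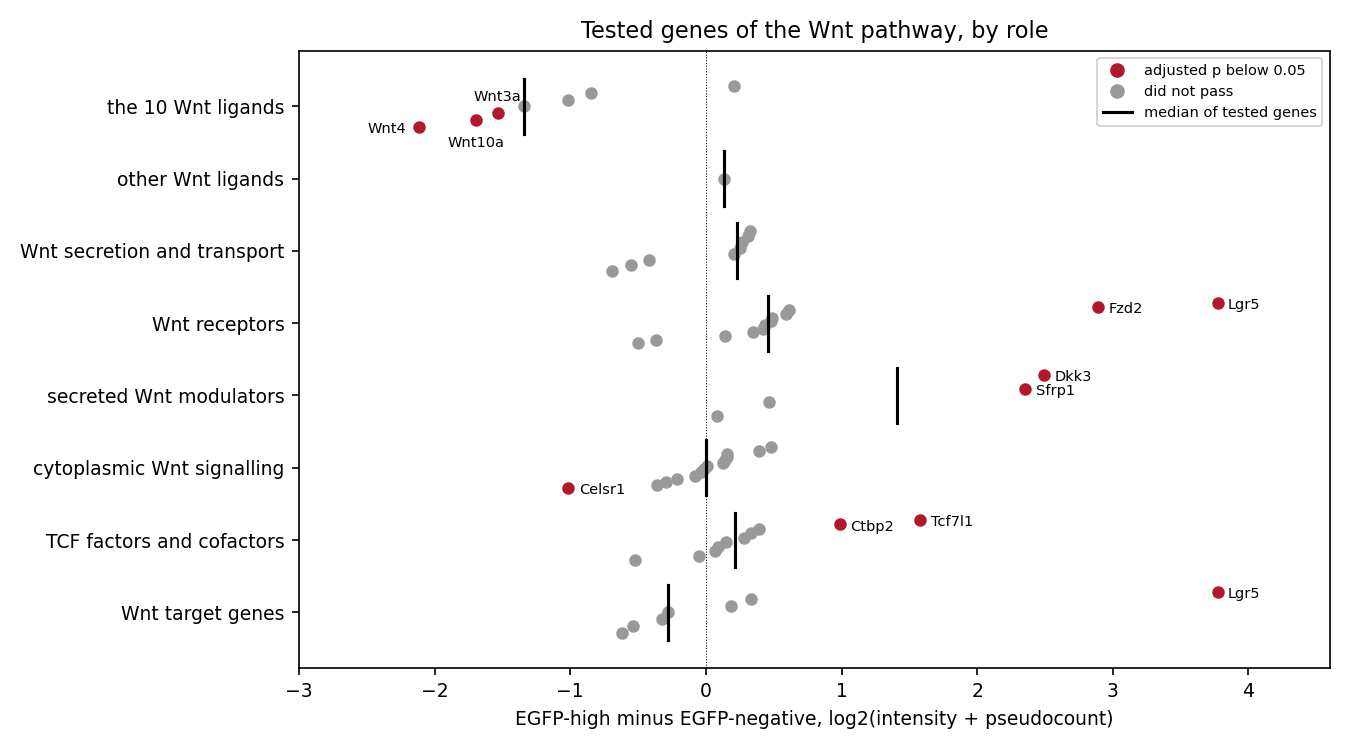
EGFP-high minus EGFP-negative difference (log2 scale) of each tested gene, by role in the Wnt pathway, with called genes in red and named, other genes in grey and a black bar at each list's median. All 3 called ligands lie left of 0, and the called receptors, modulators and TCF factors lie right of it. Lgr5 is in the list of receptors and in that of target genes.

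The adjusted p of each ligand was also read over 18 other settings. Only the replicate block models the pairing of the arrays. Most fits with fewer arrays called fewer probe sets of the whole array, down to 0.765% without number 3 against 5.19% in the reported fit. A tally of passes therefore follows the power of each fit as well and is no measure of how firm a ligand is. Wnt10a passed in all 18, with an adjusted p of up to 0.035. Wnt3a was tested in 17 and passed in 15, and Wnt4 passed in 14 of 18. Wnt3 passed in 3 of 18, Wnt7b in 2 of 17, Wnt6 in 1 of 17 and Wnt5b in 0 of 17. Every setting kept the sign of all 7.

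**Figure D4:**
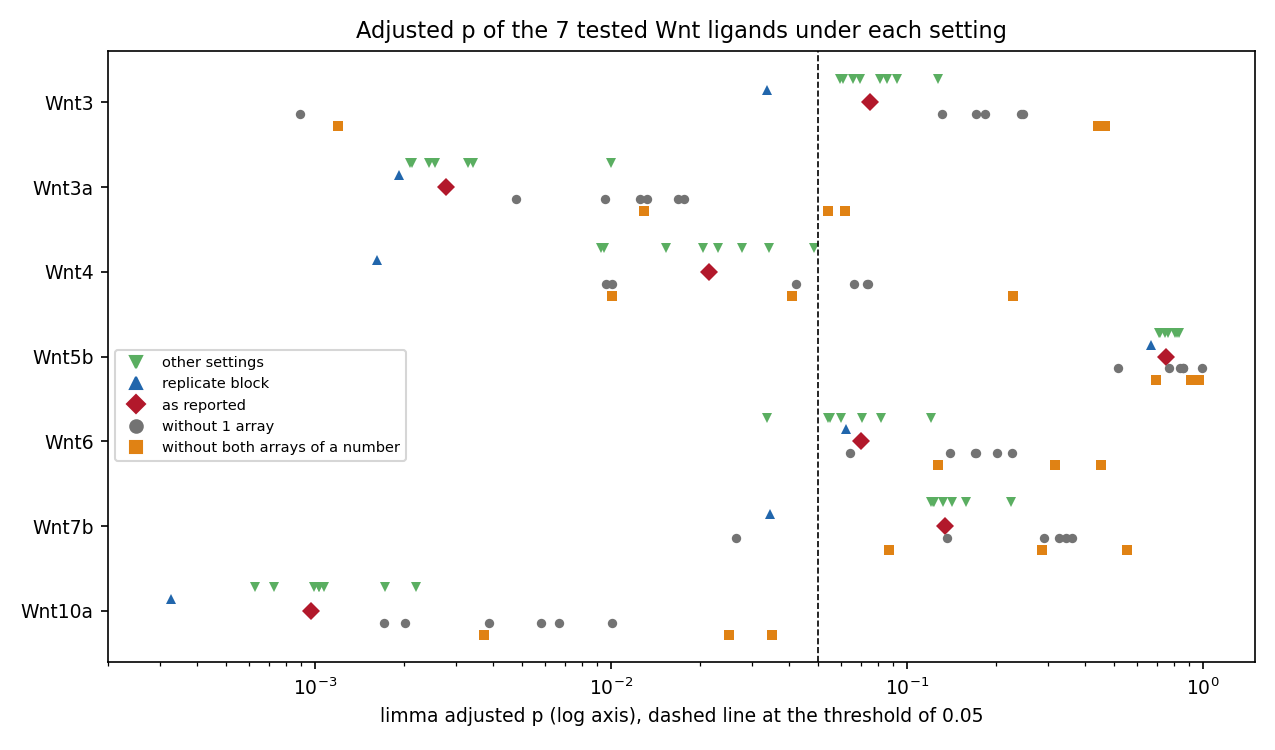
limma adjusted p (log axis) of the 7 tested Wnt ligands under the reported setting (red diamonds) and 18 others, by kind of change, with a dashed line at the threshold of 0.05. All points of Wnt10a lie left of the line and all points of Wnt5b right of it. Wnt4 crosses it on leaving out EGFP-high replicate 3 or either of EGFP-negative replicates 2 and 3, and without both arrays of number 3.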

How the data were processed

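RNA of 3 EGFP-high and 3 EGFP-negative samples was read on 1 Affymetrix mouse array each. The deposited values are linear intensities, with 1 value for each probe set on each array. Each column has a mean of 150.1 after trimming 2% at each end, so arrays share a scale. The software, background method and filter behind them were not stated by any label or header. Array medians differed by 1.09 times at most, under a limit of 1.2, so no rescaling was done. Precision is limited by the number of arrays.

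After 66 control rows were left out, intensities were analysed as log2(value + 19.3), 19.3 being the 25th percentile of values above 0. A fold change on this scale understates the change of dim genes. Probe sets with a mean above the 40th percentile (near an intensity of 44.54) were tested, 7453 in all. EGFP-high minus EGFP-negative was fitted in R 4.3.3 with limma 3.58.1 (lmFit, eBayes with an intensity trend, two-sided, Benjamini-Hochberg over the 7453). The same fit was also run on simulated data with independent noise and planted differences. That simulation held no pairing of arrays, so it does not check the fit for arrays that deviate together. A gene with several probe sets was represented by the brightest, except that every ligand probe set is given. Of the 12422 probe sets 10833 had 1 symbol, 396 several and 1193 none. Symbols were looked up in RefSeq by Entrez identifier, which changed 0.

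Same-number arrays of the 2 groups deviated together from their group means (correlations across probe sets of 0.336, 0.368 and 0.305 for numbers 1, 2 and 3), so the numbers of the titles were taken to pair the samples. The fit without this replicate block was kept as planned, and blocked values stand beside results they change.

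The ligands and lists were chosen with earlier results of these data known. All ligand probe sets are named. From the pathway lists genes past the threshold and the 2 brightest others may be named, and for called ligands the 3 nearest profiles. Markers of cell types were named after their values were seen. Alternatives changed the pseudocount, filter, scaling, variance model, pairing, arrays, control rows and the probe set standing for a gene.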

Additional observations from a re-analysis of the deposited data

How the results depend on the processing

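The ligand calls rest on few arrays. Leaving out arrays, 1 at a time or both of a number, the log2 difference ran from -2.56 to -1.59 for Wnt4, from -1.65 to -1.44 for Wnt3a and from -1.85 to -1.58 for Wnt10a. Wnt4 lost its call in 4 of these fits, and Wnt3a lost it without both arrays of number 2 (adjusted p = 0.0543) or number 3 (adjusted p = 0.0618). The ligands called lower came to between 1 and 4, the fewest without both arrays of number 3 (Wnt10a alone). All probe sets called higher came to between 43 and 266 and those called lower to between 14 and 234, against 225 and 162 with all arrays. The genes of the other Wnt lists called lower came to between 0 and 2. The ligands above the control level on every array kept came to 3 to 5 in EGFP-high and 8 to 9 in EGFP-negative cells. With the replicate block 5 ligands were called lower, 382 probe sets were called higher and 396 lower, and 2 genes of the other Wnt lists (Celsr1 and Wls) were lower. It ended no ligand's call. Under the filter at the 60th percentile Wnt3a was not tested. Other control rows gave the same ligands above the control level. Signal over background limits Wnt5a, Wnt7a and Wnt10b most.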
